A study of Drosophila melanogaster with 12 samples.

Results

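Myc and 9 nucleolar genes of ribosome assembly were followed in fly heads. They were Myc, TIF-IA, nop5, Nop56, Fib, Nop60B, Nopp140, Ns1, pit and Surf6, chosen by gene name and matched to the deposited values through their FlyBase CG numbers. These 10 were among 13759 genes measured. A gene with several transcripts was represented by the transcript with the highest mean. A mean of at least 10 normalized reads over the libraries was required for testing, and 9 of the 10 had it: Surf6 lay just inside that limit with a mean of 10.4 and pit just outside with 8.99.

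RNA came from Drosophila melanogaster heads (Canton-S background) at 18 h, and the flies were given sucrose at 0, 25, 50 or 100 percent, as the labels state it. The cabut RNAi flies (Tim-gal4, UAS-cbt RNAi) had 2 libraries at each concentration, 8 in all, called RNAi-labelled here. Control flies had the genotype written +/cbtE1-UAS-cbt RNAi, which names no Gal4 driver and whose term cbtE1 the labels do not explain, and had 1 library at each concentration, 4 in all. Tim-gal4 uses the timeless promoter, which is active in circadian clock cells, whereas whole heads were sequenced. In such bulk RNA, fewer cells of a type and less RNA per cell cannot be told apart. The labels give neither age nor sex and do not say that libraries came from separate groups of flies, so p-values measure the spread among libraries, part of which may be technical.

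Myc is a transcription factor that drives cell growth, and in flies it is known to raise transcription of genes for ribosome production. Ribosomal RNA is transcribed by RNA polymerase I in the nucleolus, where guide RNAs in small nucleolar ribonucleoproteins (snoRNPs) direct its chemical modification. Box C/D snoRNPs add methyl groups, box H/ACA snoRNPs make pseudouridine, and further nucleolar proteins assemble the modified RNA with ribosomal proteins into the subunits.

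The RNA-seq method selected poly(A) RNA after fragmentation, so reads lie near 3′ ends. Values are read counts scaled by 1 factor per library, called normalized reads here. The libraries held 511487 to 1859280 reads with 1 transcript per gene, the fewest in the control at 100 percent sucrose. Members were thinly covered: Myc had 29 to 72 reads per library, nop5 14 to 46, Fib 15 to 64, pit 3 to 19 and Surf6 3 to 22. The targeted gene cbt (cabut, a zinc-finger transcription factor gene) was not lower in the RNAi-labelled libraries. It had 102 and 127 normalized reads at 0 percent, 162 and 126 at 25 percent, 166 and 138 at 50 percent, and 186 and 202 at 100 percent in those libraries. The controls had 93.5, 139, 128 and 98.5 normalized reads in the same order of concentration, and the fitted log2 difference was 0.38 ± 0.13 (SE; limma adjusted p = 0.0539). It was 0.19 without the control at 100 percent (adjusted p = 0.363), and in 9 of 24 alternatives it passed the threshold as higher. Here and below, when a control is left out, RNAi-labelled libraries at its concentration no longer enter the estimated label difference. Over the concentrations with sucrose cbt was called higher, by 0.42 ± 0.12 (SE; adjusted p = 0.0344), but not without the control at 100 percent (0.14, adjusted p = 0.628). Directions below are therefore directions between labels.

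Markers of several cell types also differed between labels. Of 6 tested fat body genes 3 were lower and 2 higher in the RNAi-labelled libraries (2 lower and 3 higher after quantile normalization), while Fbp1 had no read. When single libraries were left out, 2 to 3 were lower and 1 to 2 higher. The lower ones were the yolk protein genes Yp1 (log2 fold change -0.78), Yp2 (-0.57) and Yp3 (-0.88), and the higher ones were Lsp2, a larval storage protein gene, with a log2 fold change of 1.83, and to (takeout) with 1.15. The summed level of this list, which is mostly yolk protein RNA, ranged from 26313 to 59493 normalized reads under the RNAi label and from 53598 to 75828 in controls. Of 7 glial genes 4 were called higher, and 3 lay below 0 without a call. The glial sums were 2005 to 2469 normalized reads under the RNAi label and 1886 to 2016 in controls. Of 5 tested muscle genes 3 were higher and none lower: Prm (0.64), Mhc (0.41) and wupA (0.35), with sums of 1024 to 1726 under the RNAi label and 933 to 1097 in controls. Muscle genes gave 0 calls without the control at 100 percent sucrose, and 1 without the control or the second RNAi-labelled library at 50 percent or the second at 100 percent. Of 6 tested neuronal genes 2 were lower, nSyb (-0.58) and Syt1 (-0.53), with sums of 617 to 643 and 615 to 702 normalized reads in the same order of labels. Of 5 tested hemocyte genes Hml alone was called, higher by 0.62. Of 11 photoreceptor genes 3 were higher and 3 lower (5 and 1 after quantile normalization), and their sums overlapped, at 23039 to 26382 normalized reads in the RNAi-labelled libraries and 22126 to 27529 in controls. All these calls had a limma adjusted p under 0.05, which 15.5 percent of the 6552 genes tested reached, 8.71 percent as lower. The part of these cell types in the differences below was not tested.

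The control library at 100 percent sucrose stood apart in germline RNA. Its summed level over 6 germline and ovary genes was 49.2 normalized reads, while the RNAi-labelled libraries ranged from 0 to 7.99 and the other controls from 0 to 4.20. It held 15 reads of osk (33.6 normalized reads), a maternal RNA localized in the egg, and the other 11 libraries held none. A count of 0 allowed at most 1.498 to 3.84 normalized reads in those 11. Among the 6 genes, bam and bgcn had no read in any library. Because this library also had the highest Myc and nop5 values of the series, results that rest on it are given with and without it. The part of germline RNA in them was not tested.

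**Figure D1:**
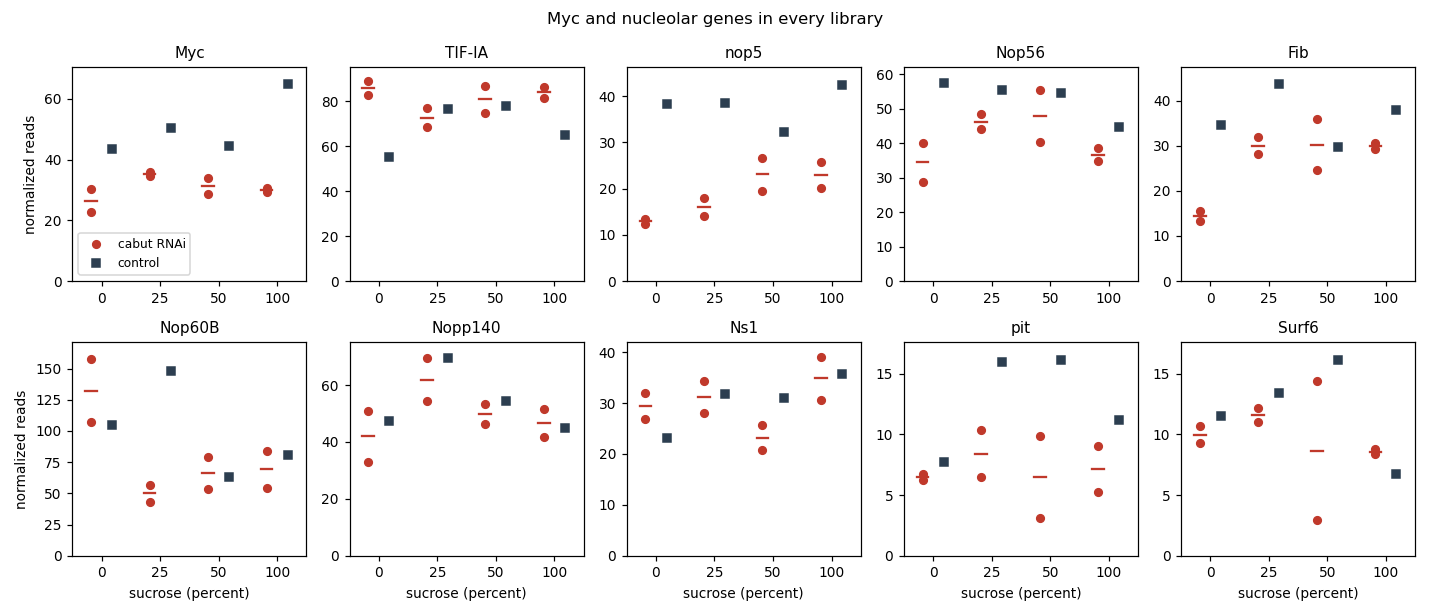
Normalized reads (vertical axis, starting at 0 in each panel) of Myc and the 9 nucleolar genes against sucrose concentration in percent (horizontal axis). Red circles are the 2 RNAi-labelled libraries at each concentration with a line at their mean, and dark squares are the single control libraries; for Myc and nop5 every red circle lies below every square.

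Expression of Myc was lower in the RNAi-labelled libraries. Myc (CG10798, chromosome X, 3267216 to 3280049, build dm3) had 30.2 and 22.7 normalized reads at 0 percent sucrose, 35.9 and 34.7 at 25 percent, 33.9 and 28.6 at 50 percent, and 30.7 and 29.3 at 100 percent under that label. The controls had 43.5, 50.3, 44.6 and 64.9 normalized reads from 0 to 100 percent. All 8 RNAi-labelled libraries lay below all 4 controls, as for 5.02 percent of the genes tested, with means of 30.8 ± 4.22 (SD, n = 8) and 50.8 ± 9.83 (SD, n = 4). Myc was 1.63-fold lower, a log2 fold change of -0.70 ± 0.15 (SE; limma adjusted p = 0.00205) in the fit over all 12 libraries with concentration as a factor. Without the control at 100 percent sucrose the change was -0.57 (adjusted p = 0.0319).

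TIF-IA, an initiation factor for RNA polymerase I, had no called difference and was the only tested member with a value above 0. Its levels at 0 percent sucrose were 88.9 and 83.0 normalized reads in the RNAi-labelled libraries, against 55.1 in the control. With sucrose they ranged from 68.5 to 86.8 normalized reads under the RNAi label and were 76.4, 78.0 and 64.9 in controls at 25, 50 and 100 percent. The ranges overlapped over all libraries. The log2 fold change was 0.24 ± 0.12 (SE; limma adjusted p = 0.211), with a 95 percent interval of -0.01 to 0.50.

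Among the box C/D snoRNP proteins, nop5 had the largest difference of the tested members. This gene (CG10206, chromosome 2L, 6916749 to 6918741, build dm3) encodes the fly counterpart of NOP58, a core protein of these particles. At 0 percent sucrose, nop5 had 12.4 and 13.4 normalized reads in the RNAi-labelled libraries, against 38.4 in the control. Exact 95 percent Poisson intervals, which cover counting error only, were 6.80 to 20.9 and 8.76 to 19.6 normalized reads in the RNAi-labelled libraries and 25.9 to 54.9 in the control. At 25 percent nop5 had 17.97 and 14.1 normalized reads under the RNAi label against 38.6 in the control, and at 50 percent 19.5 and 26.6 against 32.2. At 100 percent there were 20.1 and 25.8 normalized reads against 42.5.

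The nop5 groups did not overlap, and their means were 18.8 ± 5.42 (SD, n = 8) under the RNAi label and 37.9 ± 4.26 (SD, n = 4) in controls. The gene was 2.03-fold lower (log2 fold change -1.02 ± 0.19, SE; limma adjusted p = 6.24e-04). Without the control at 100 percent the change was -1.07 (adjusted p = 0.00553). In the newer gene annotation nop5 lies inside x16 on the same strand. Both genes have separate values, and how their shared reads were assigned is not given in the sources used here. The values listed for x16 showed no such split, with 29.6 to 41.8 normalized reads in the RNAi-labelled libraries and 21.8 to 46.2 in controls.

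Nop56 encodes the partner of the nop5 protein in the C/D core. In the RNAi-labelled libraries Nop56 had 39.98 and 28.9 normalized reads at 0 percent sucrose, 48.4 and 44.1 at 25 percent, 55.4 and 40.5 at 50 percent, and 38.5 and 34.9 at 100 percent. The controls had 57.6, 55.4, 54.5 and 44.8 normalized reads. The mean under the RNAi label was below the control at all 4 concentrations, with ratios of 0.597, 0.835, 0.880 and 0.820 in that order, yet single libraries overlapped. The log2 fold change of -0.37 ± 0.15 (SE) missed the threshold (limma adjusted p = 0.0983; 95 percent interval -0.67 to -0.07).

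Fib encodes fibrillarin, the methyltransferase of box C/D snoRNPs. The difference between labels was widest at 0 percent sucrose, where Fib had 13.3 and 15.5 normalized reads in the RNAi-labelled libraries, against 34.6 in the control. With sucrose it had 31.9 and 28.2 normalized reads at 25 percent, 35.9 and 24.7 at 50 percent, and 30.7 and 29.3 at 100 percent under the RNAi label, against 43.6, 29.7 and 38.0 in the controls. Over all concentrations the log2 fold change was -0.52 ± 0.18 (SE; limma adjusted p = 0.0638; 95 percent interval -0.90 to -0.13). It passed the threshold without the control at 50 percent (adjusted p = 0.0308) and without the first RNAi-labelled library at 50 percent (adjusted p = 0.0272). Without the control at 0 percent it was -0.29 (adjusted p = 0.370), the smallest difference among the alternatives.

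Differences of the other members were not called. Nopp140, a chaperone that shuttles snoRNPs, ranged from 32.9 to 69.4 normalized reads in the RNAi-labelled libraries with a median of 51.4, and had 47.4, 69.7, 54.5 and 44.8 in controls from 0 to 100 percent (log2 fold change -0.12 ± 0.14, SE; limma adjusted p = 0.665). Ns1, a nucleostemin-family GTPase of large subunit assembly, ranged from 20.7 to 39.1 with a median of 29.4 under the RNAi label and had 23.1, 31.9, 31.0 and 35.8 normalized reads in controls. Its log2 fold change of -0.04 had a 95 percent interval of -0.38 to 0.30. Surf6, whose mammalian counterpart is a nucleolar ribosome assembly factor, ranged from 2.96 to 14.4 normalized reads in the RNAi-labelled libraries and from 6.71 to 16.1 in controls. With 3 to 22 reads per library its log2 fold change had a wide 95 percent interval, -1.001 to 0.39.

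The DEAD-box helicase gene pit (pitchoune) fell under the limit on mean reads. It ranged from 3.08 to 10.3 normalized reads with a median of 6.60 in the RNAi-labelled libraries, and had 7.68, 15.9, 16.1 and 11.2 in controls from 0 to 100 percent. The label groups overlapped at the control without sucrose. When genes of any level were fitted, pit had a log2 fold change of -0.77 ± 0.33 (SE; limma adjusted p = 0.186).

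**Figure D2:**
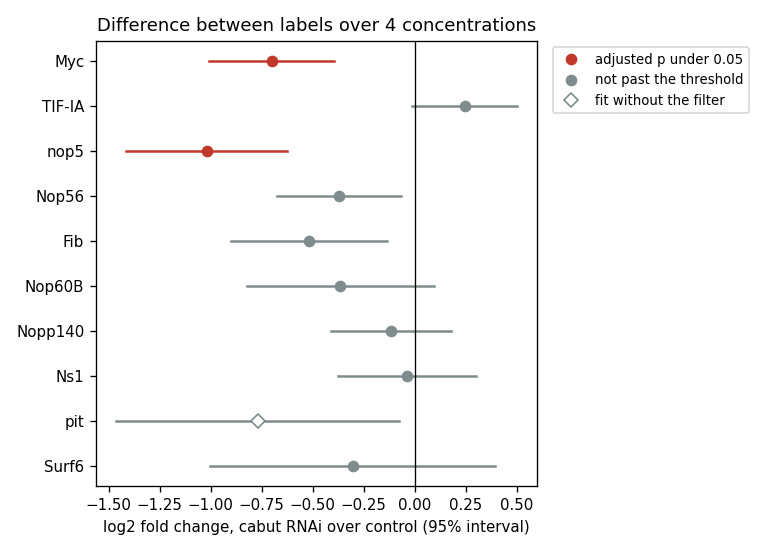
Log2 fold changes of the RNAi-labelled libraries over controls (horizontal axis) for each gene, with 95 percent intervals, from the fit over 12 libraries. Red marks the 2 genes with a limma adjusted p under 0.05, nop5 at -1.02 and Myc at -0.70; grey marks the others, and the open diamond is pit from the fit of genes of any level.

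In the comparison between labels, 2 of the 9 tested members were thus called, both lower, while 15.5 percent of the 6552 genes tested were called and 8.71 percent were called lower. The median log2 fold change of the 9 was -0.37, against 0.01 over all genes tested. Values of all RNAi-labelled libraries lay below all controls for 2 of the 9 and for 5.02 percent of all genes. The mean under that label lay below the control at all 4 concentrations for 3 of the 9 (Myc, nop5 and Nop56) and for 15.3 percent of all genes.

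With and without sucrose, the label differences were as follows. At 0 percent, with 2 libraries against 1 control, nop5 was lower by -1.50 ± 0.34 on the log2 scale (SE; limma adjusted p = 0.0358), where 3.28 percent of all genes were called and 1.89 percent were called lower. That call was lost without either RNAi-labelled library at 0 percent (adjusted p = 0.128 and 0.103). Fib had -1.21 ± 0.31 (SE; adjusted p = 0.0585) and TIF-IA 0.63 ± 0.19 (SE; adjusted p = 0.111). Over 25, 50 and 100 percent together, Myc was lower by -0.70 ± 0.16 (SE; adjusted p = 0.0102) and nop5 by -0.86 ± 0.19 (SE; adjusted p = 0.0105), where 15.4 percent of all genes were called and 8.38 percent were called lower. Without the control at 100 percent, only 25 and 50 percent remained in this difference, and neither gene passed. Myc then had -0.50 (adjusted p = 0.159) and nop5 -0.85 (adjusted p = 0.0522). Without the control at 25 percent, which leaves 50 and 100 percent, nop5 had -0.67 (adjusted p = 0.0900).

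The response to sucrose was then compared within each label, as any sucrose over none. In the RNAi-labelled libraries, Fib was higher with sucrose, at 24.7 to 35.9 normalized reads in the 6 libraries with sucrose against 13.3 and 15.5 in the 2 without. The groups did not overlap, and the log2 fold change was 1.01 ± 0.22 (SE; limma adjusted p = 0.0321), 2.01-fold. The level of nop5 also did not overlap, at 14.1 to 26.6 normalized reads with sucrose against 12.4 and 13.4 without, but its change of 0.61 ± 0.24 (SE) missed the threshold (adjusted p = 0.388). Both genes lay lower without sucrose than in all 6 libraries with it, as 5.42 percent of all genes did.

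Nop60B, the fly dyskerin and pseudouridine synthase of box H/ACA snoRNPs, moved the other way in its most abundant transcript. That transcript, CG3333-RD (chromosome 2R, 20062250 to 20073592, build dm3), had 56.9 and 43.2 normalized reads at 25 percent sucrose, 79.1 and 53.3 at 50 percent, and 84.1 and 54.4 at 100 percent in the RNAi-labelled libraries, against 157 and 107 at 0 percent. It was lower with sucrose by -1.10 ± 0.22 on the log2 scale (SE; limma adjusted p = 0.0193), and both values without sucrose lay above all 6 with it, as for 6.12 percent of all genes. Controls had 148, 63.2 and 80.6 normalized reads at 25, 50 and 100 percent against 105.0 at 0 percent.

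Of 6552 genes, 1.97 percent were called for sucrose under the RNAi label, 0.595 percent as higher and 1.37 percent as lower, and 2 of the 9 members were among them. Both calls rested on the 2 libraries without sucrose. Without the first, Fib had 0.91 (adjusted p = 0.365) and Nop60B -0.82 (adjusted p = 0.456). Without the second, Fib had 1.11 (adjusted p = 0.167) and Nop60B -1.37 (adjusted p = 0.0606). Fib also missed the threshold without either library at 25 percent, the first at 50 percent or either at 100 percent (adjusted p between 0.0549 and 0.0751), and with DESeq2 on recovered reads (adjusted p = 0.110). Yolk protein RNA was also higher with sucrose in these libraries: of 6 tested fat body markers Yp2 (1.03, limma adjusted p = 0.0198) and Yp3 (0.78, adjusted p = 0.0248) were called higher, while 2 of the 6 lay below 0 and were not called. The fat body sum, mostly yolk protein RNA, was 35324 to 59493 normalized reads in the 6 with sucrose against 26313 and 27996 in the 2 without. The part of these cells in the member changes was not tested.

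**Figure D3:**
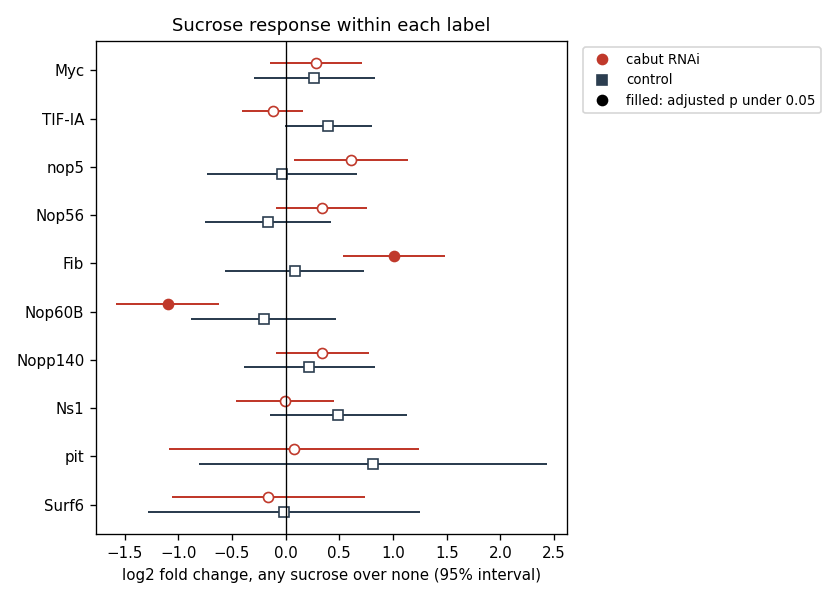
Log2 fold changes of any sucrose over none (horizontal axis) with 95 percent intervals, for RNAi-labelled libraries (red circles) and controls (dark squares). Filled symbols have a limma adjusted p under 0.05, which only Fib at 1.01 and Nop60B at -1.10 under the RNAi label reach; control intervals borrow their spread from the other groups, and pit comes from the fit of genes of any level.

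The transcripts of Nop60B gave different answers. The shorter transcript CG3333-RA (chromosome 2R, 20062250 to 20064781, build dm3) shares its start with CG3333-RD and ends earlier. It had 28.5 and 32.8 normalized reads at 25 percent sucrose, 22.6 and 16.8 at 50 percent, and 27.2 and 32.8 at 100 percent in the RNAi-labelled libraries, against 16.9 and 17.0 at 0 percent. Its sucrose change under that label was 0.60 ± 0.21 (SE; limma adjusted p = 0.315), opposite in sign to the longer transcript.

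Between labels the shorter transcript was called and the longer was not, and the difference between them was not tested. Controls had 32.02, 36.9, 26.01 and 51.5 normalized reads of CG3333-RA from 0 to 100 percent, and the log2 fold change of the RNAi label over controls was -0.58 ± 0.16 (SE; adjusted p = 0.0196). The longer transcript had -0.37 ± 0.22 (SE; adjusted p = 0.307), and 0.03 without the control at 25 percent (adjusted p = 0.940). Using CG3333-RA for the gene was decided after its values were seen. The other 3 transcripts listed for the gene held equal values, 0.987 to 12.4 normalized reads in the RNAi-labelled libraries and 2.24 to 8.39 in controls. The newer annotation lists 5 transcripts of Nop60B, without an RD form, and 7 snoRNA genes and 1 transposable element that overlap it.

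**Figure D4:**
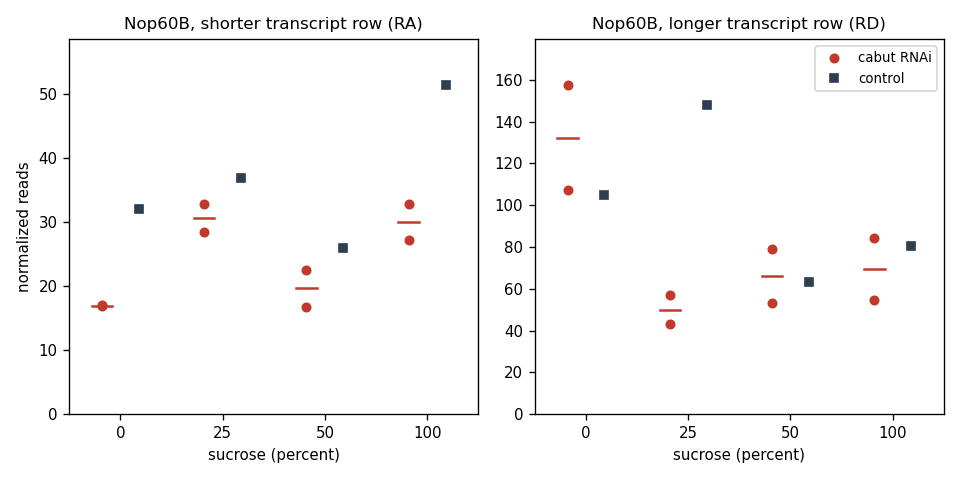
Normalized reads (vertical axes from 0, with different scales) of the shorter Nop60B transcript RA and the longer RD against sucrose in percent, for RNAi-labelled libraries (red circles, line at the mean of 2) and single controls (dark squares). Under the RNAi label RD is highest at 0 percent, with 157 and 107, where RA has 16.9 and 17.0.

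In controls no member was called for sucrose by limma, none of the 9 had an unadjusted p under 0.05, and edgeR and DESeq2 called 0, while limma called 1.16 percent of all genes. Myc was 0.27 ± 0.26, Fib 0.08 ± 0.29, nop5 -0.03 ± 0.32 and Nop60B -0.20 ± 0.30 on the log2 scale (SE). The difference of the sucrose responses, RNAi label minus control, was tested directly. It was called for 0 of the 9 members by limma, edgeR and DESeq2, with 3 at an unadjusted p under 0.05 in limma, and for 0.229 percent of all genes. Those 3 were Fib with 0.93 (95 percent interval 0.15 to 1.71; adjusted p = 0.399), Nop60B with -0.89 (-1.71 to -0.08; adjusted p = 0.434) and TIF-IA with -0.52 (-1.01 to -0.03; adjusted p = 0.450). A sucrose response that differs between labels was therefore not shown for any of them.

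Over both labels together, any sucrose over none called 0 of the 9 members by limma, edgeR and DESeq2, with 2 at an unadjusted p under 0.05 in limma, where 2.15 percent of all genes were called. Fib had 0.70 ± 0.20 (SE; adjusted p = 0.0772) and Nop60B -0.80 ± 0.24 (SE; adjusted p = 0.0993). Fib passed without the control at 50 percent (0.78, adjusted p = 0.0411), and Nop60B without the control at 25 percent (-0.98, adjusted p = 0.00368). Without the control at 0 percent both passed, Fib with 1.01 (adjusted p = 0.0144) and Nop60B with -1.10 (adjusted p = 0.0461). That fit holds no control without sucrose, so its estimates repeat those under the RNAi label alone. Myc had 0.28 ± 0.16 (SE; adjusted p = 0.578). Among the 9 libraries with sucrose, no member followed the concentration. The slope per doubling called 0 members and 0 of 6552 genes by limma, with 1 member at an unadjusted p under 0.05. That member was Nopp140, with -0.24 ± 0.09 (SE) and an unadjusted limma p of 0.0149 (adjusted p = 0.9996). Of all genes, edgeR called 6 and DESeq2 1, none of them a member.

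Further genes of the pathway were taken from lists by role, which also hold the members above except Myc. Of the 10 box C/D and H/ACA snoRNP genes, 4 were lower in the RNAi-labelled libraries, where 8.71 percent of all genes were called lower. None was higher, and the median log2 fold change was -0.44 against 0.01 over all genes. Of the 10, 5 were not members, and 3 of those 5 were lower, with a median of -0.50. Beside nop5, the lower genes included hoip, a guide RNA binding protein of the C/D core. It had 36.4 ± 8.72 normalized reads (SD, n = 8) under the RNAi label and 61.5 ± 10.7 in controls (SD, n = 4). Its log2 fold change was -0.76 ± 0.16 (SE; limma adjusted p = 0.00265). The H/ACA core genes Nop10 and Gar1 changed by -0.55 ± 0.16 (SE; adjusted p = 0.0239) and -0.50 ± 0.16 (SE; adjusted p = 0.0437). In every RNAi-labelled library hoip, Nop10 and Gar1 lay below all controls, as for 5.02 percent of all genes. They were named because they were called in these same libraries. Between 3 and 5 of the list were called when any single library was left out, and 2 with DESeq2.

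In the large subunit list 1 of 13 tested genes was lower and none higher (median -0.30, or -0.36 over the 11 that are not members). That share was near the 8.71 percent of all genes called lower. This was CG4364, which, with 183 ± 24.9 normalized reads under the RNAi label (SD, n = 8) against 255 ± 47.3 in controls (SD, n = 4), changed by -0.47 ± 0.10 (SE; limma adjusted p = 0.00253). Among 6 other nucleolar genes, TIF-IA included, CG4806 alone was lower, by -0.61 ± 0.19 (SE; limma adjusted p = 0.0323). This call was lost when the second RNAi-labelled library at 0 percent, either at 25 percent, or the control at 0, 25 or 50 percent was left out, and DESeq2 called none of the 6. Small subunit genes gave no call by limma, edgeR or DESeq2 among 3 tested of 14 found, with 1 at an unadjusted p under 0.05 in limma: bys, an assembly factor of the small subunit, had 0.47 ± 0.18 (SE; adjusted p = 0.0884). RNA polymerase I subunits were mostly under the limit on mean reads, with 2 tested of 10 found and no call by these 3 tools. Polr1E, at an unadjusted p under 0.05, had 0.69 ± 0.27 (SE; adjusted p = 0.102).

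Of 8 tested genes of the Myc network, which holds the Myc partner Max and regulators of Myc, none was called between labels by limma, edgeR or DESeq2, and 0 had an unadjusted p under 0.05 in limma. The smallest p belonged to pont, a chromatin remodelling ATPase that binds Myc, with 15.2 ± 3.60 normalized reads under the RNAi label (SD, n = 8) and 21.5 ± 6.05 in controls (SD, n = 4; adjusted p = 0.217). Max itself had 38.9 ± 5.09 and 38.8 ± 2.87 normalized reads in the same order (SD, n = 8 and 4). For any sucrose over none, limma, edgeR and DESeq2 called 0 of the 42 tested genes of these lists, members included, with 6 at an unadjusted p under 0.05 in limma.

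Cytosolic ribosomal protein genes were lower as a group. Of 81 tested, 78 were lower in the RNAi-labelled libraries, against 8.71 percent of all genes, and none was higher, with a median of -0.54. RpS21 had 1858 ± 147 normalized reads under the RNAi label (SD, n = 8) and 3389 ± 173 in controls (SD, n = 4), a log2 fold change of -0.87 ± 0.08 (SE; limma adjusted p = 1.25e-07). Ribosomal protein RNA made up 20.5 to 22.7 percent of reads under the RNAi label and 26.7 to 28.7 percent in controls. Quantile normalization, which forces libraries to 1 distribution, left 25 of the 81 lower and 2 higher with a median of -0.11. Median-of-ratios scaling, edgeR and DESeq2 each called 78 of the 81 lower and 0 higher, with medians of -0.53. Myc and nop5 stayed called as lower under quantile normalization and under median-of-ratios scaling.

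**Figure D5:**
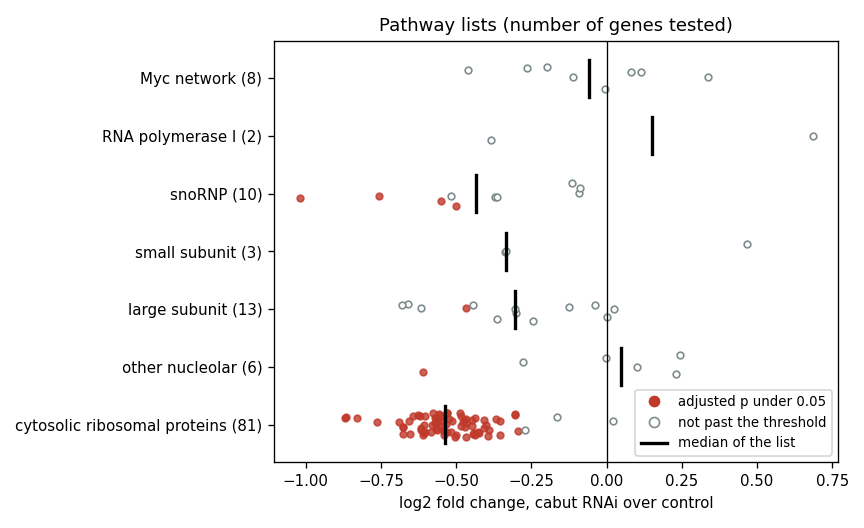
Log2 fold changes of the RNAi-labelled libraries over controls (horizontal axis) for every tested gene of each list, members included. The number tested follows the list's name. Red circles have a limma adjusted p under 0.05, open circles do not, and black bars are medians. These are -0.44 for snoRNP genes and -0.54 for cytosolic ribosomal proteins, where quantile normalization gives -0.11 and median-of-ratios scaling -0.53.

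Likeness over the 12 libraries is given as a description, on log2 values, among 2293 genes with a mean of at least 50. The libraries differ in depth and span both labels, which Myc and nop5 separate. Of 81 ribosomal protein genes tested, 78 were lower under the RNAi label, as Myc was. The part of the label difference in this likeness was not tested. The 5 genes most like Myc were all ribosomal protein genes: RpS25 (Pearson r = 0.95), RpL36 (0.94), RpL18 (0.93), RpL14 (0.92) and RpS10b (0.92). The 5 most like nop5 were Tctp (0.91), SelG (0.91), Wdfy2 (0.90), CG30197 (0.89) and Phm (0.89). Between members, Myc and nop5 had r = 0.77, nop5 and Fib 0.73, and Myc and Fib 0.70. TIF-IA had an r of -0.63 with Myc and -0.58 with Nop56.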

How the data were processed

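The authors deposited 1 table of 21081 transcripts in 12 libraries, whose unit is a normalized signal. The submitters' processing notes name Bowtie, TopHat and genome build dm3 and give no versions. How reads were counted, whether strand was used and how libraries were normalized is not given in the sources used here, so how reads were divided between overlapping genes (CG12535 at Myc, x16 at nop5, P5CDh1 at Nopp140, Fadd at pit, ClpX at Surf6) is unknown. Annotated transposable elements overlap TIF-IA (6) and Nop60B (1), and their part in the reads was not tested. All deposited signal values (100 percent, within 0.01) were whole multiples of 1 step per library, and reads were recovered by division. Poisson intervals and limits from a count of 0 cover counting error only; intervals of fold changes come from limma and the spread among libraries. Of 14010 CG numbers, 13536 matched a symbol; 2 transcripts without an own number were dropped.

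Genes with a mean of at least 10 were tested on log2(value + 1) with limma 3.58.1 (trend; R 4.3.3), Benjamini-Hochberg adjustment over 6552 genes and a threshold of 0.05. This scale understates changes of low genes. Single controls borrow the spread of other groups. edgeR 4.0.16 and DESeq2 1.42.0 ran on recovered reads. Fits were tested on simulated data. The members, lists and naming rule (members, called list genes or the smallest p, and the 5 most alike genes) were chosen with earlier results of these data known; 2 list names that matched unrelated genes were dropped after values were seen, and bcd was added likewise. Replicate libraries varied beyond counting noise (chi-square per degree of freedom 2.89 to 6.23), and all were kept as separate samples. Names come from RefSeq and Ensembl annotation of a newer build, whose coordinates were used only to find overlapping genes.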

Additional observations from a re-analysis of the deposited data

Results flagged for a closer look

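In 38 sets of 4 or 8 libraries, the highest or lowest library was compared with the others. A set held the values of a member or of cbt, a marker sum or the ribosomal protein share, under 1 label. In 2 sets a library lay far from the rest, where chance gives about 1 in 20. Both were sums over markers in the 4 controls, and both times the highest was the control at 100 percent sucrose. Its germline and ovary sum was 49.2 normalized reads, with a gap to the next control of 0.915 of the range. The same library held 13.4 normalized reads of bcd, a maternal RNA gene picked after its values were seen. Its hemocyte sum was 203.6 normalized reads, with a gap of 0.861 of the range, against 193.0 to 194.5 in the other controls. No member's values were far from the rest in this sense. Without that control, Myc and nop5 were still called lower over all concentrations but not over the concentrations with sucrose alone.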

How the results depend on the processing

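Of 1762 log2 fold changes recomputed under alternatives, 1651 kept their sign and their side of the threshold, 30 lost and 27 gained a call, 53 uncalled values changed sign and 1 called value reversed: Nop60B over sucrose under the RNAi label, 0.60 with transcript RA, a choice made after seeing the data. Over all concentrations, Myc and nop5 were called in every alternative except a minimum mean of 50, which left 0 members called because neither was tested. Over sucrose in both labels, 0 to 2 members were called when single libraries were left out, and without the controls at 0, 25 and 50 percent 2, 1 and 1. The fit without the control at 0 percent repeats the estimates under the RNAi label. Under the RNAi label 2 were called; there were 0 with no filter and 0 without the trend, 1 with a minimum mean of 50, 1 with DESeq2, 1 with summed transcripts, 1 with transcript RA, and 0 to 2 with a library left out. At 0 percent sucrose 1 was called, with 0 for no filter, a minimum mean of 50, no trend and DESeq2, 2 for robust limma, and 0 to 1 with a library left out. Over concentrations with sucrose 2 were called, with 1 for a minimum mean of 50, 0 for DESeq2, and 0 to 3 with a library left out. A further 18 had no adjusted p from DESeq2, among them nop5 at 0 percent and Myc and nop5 over concentrations with sucrose. Except where said, the cause was not tested. Without the control at 0 percent, comparisons that need it were not estimable. Replicate numbers were not shown to pair libraries (correlations of their differences -0.11 to 0.14); with the replicate block 1005 genes and 2 members were called between labels and 160 genes and 2 members for sucrose under the RNAi label. Depth limits pit and Surf6 most.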
